A study of Homo sapiens with 6 samples.

Results

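Eso26 is a human adenocarcinoma cell line from the junction of esophagus and stomach. This comparison sets 1 RNA-seq library of Eso26 cells transfected with an siRNA against PPARG (siPPARG) against 1 library of Eso26 cells transfected with a non-silencing siRNA (control). Both cultures were grown in RPMI-1640 and transfected with Lipofectamine RNAiMAX. The sources used here do not give the siRNA sequences or the time of harvest. The genes described are those that reach 5 CPM (counts divided by the scaled library total and brought to the same base) in 1 or both libraries, which left 10443 genes of 37493 Ensembl identifiers. NBPF26 and PIM1, both at 5.03 CPM in their higher library, lay just inside this filter, and GRAMD1B and HHAT, both at 4.99 CPM, lay just outside it. The same series holds 1 library per condition of a second esophageal adenocarcinoma line, OE33, grown in DMEM, whose values are given only beside the Eso26 values. The design text speaks of triplicates while each condition has 1 column of counts, and each column was treated as 1 library. No value below therefore has a replicate check, there is no test within Eso26, and every interval is a 95% interval of counting error alone.

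PPARG is a nuclear receptor that binds DNA as a heterodimer with a retinoid X receptor (RXR) and is switched on by fatty acids and by the thiazolidinedione drugs. It drives the differentiation of fat cells and is also made in the columnar epithelium of the gut, where it acts on genes of lipid uptake, storage and oxidation. Its relatives PPARA and PPARD share many of the same binding sites, and all of them work through the same pools of coactivators and corepressors.

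The Eso26 control held 23019840 counts and the library labelled siPPARG 20534170. Mitochondrially encoded genes took 2.80% and 2.75% of the counts, and 17456 and 17434 identifiers had at least 1 count. All 8 epithelial markers were kept, at a summed 5650 CPM in the control and 5439 CPM in the library labelled siPPARG. Fat cell markers summed to 1.5 and 2.30 CPM, with ADIPOQ, FABP4 and LEP at 0 in both libraries. The 10 squamous markers summed to 2.74 and 3.50 CPM, with TP63, KRT4, KRT13 and IVL among the 6 at 0 in both. White blood cell markers summed to 26.5 CPM in each library, of which only LYZ passed the filter, and CD3E, MS4A1, CD68 and FCGR3A were at 0 in both. Mesenchymal markers summed to 7.99 and 9.40 CPM and endothelial markers to 2.78 and 3.98 CPM.

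PPARG (ENSG00000132170) itself stood at 259 counts (11.4 CPM) in the control and 201 counts (9.64 CPM) in the library labelled siPPARG, a ratio of 0.843 with an interval of 0.698 to 1.02. The intervals of the 2 libraries overlap, so no reduction of the targeted mRNA was detectable at this depth. In OE33 the corresponding counts were 2156 and 313, a log2 fold of -2.87. Every direction given for Eso26 therefore belongs to the library labelled siPPARG and not to a measured loss of PPARG. Among all genes kept in OE33, 48.7% had a log2 fold above 0, and the OE33 counts of gene lists below are to be read against that share.

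Among the partners and relatives of PPARG, PPARA differed most. PPARA, the receptor that governs fatty acid oxidation, stood at 47.8 CPM in the control and 92.8 CPM in the library labelled siPPARG (1084 and 1935 counts), 1.94 times the control (interval 1.80 to 2.09). PPARD, the third and widely made member of the family, went from 21.5 to 25.2 CPM, a ratio of 1.17 (interval 1.03 to 1.33). The obligate partners RXRA and RXRB were also slightly higher, with ratios of 1.17 (interval 1.09 to 1.26) and 1.12 (interval 1.02 to 1.22), while RXRG had 0 counts in both libraries. The coactivators and corepressors went the other way: 10 of 11 kept members were lower, against 5364 of all 10443 kept genes. Their median log2 fold was -0.25, against -0.0073 over all kept genes. The coactivators and corepressors are long genes (median span 156 kb). After centring by gene span, described below, 8 of 11 were lower and the median was -0.14. PPARGC1B, a coactivator that raises mitochondrial gene expression, went from 19.7 to 11.9 CPM, a ratio of 0.605 (interval 0.516 to 0.709). NCOA3, a steroid receptor coactivator with acetyltransferase activity, went from 57.6 to 42.4 CPM, a ratio of 0.737 (interval 0.676 to 0.803). In OE33, PPARA went from 79.0 to 71.9 CPM and PPARGC1B from 19.1 to 15.5 CPM.

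Across all 10443 kept genes the 2 Eso26 libraries were close. Log2 folds were above 0 for 5079 genes (48.6% of those kept). Past 2-fold, 6 genes (0.0575%) were higher and 15 genes (0.144%) were lower in the library labelled siPPARG. With total counts in place of the scaling factors that split became 8 higher and 10 lower, and with folds centred within classes of gene span (described below) it became 9 higher and 11 lower. Past 1.5-fold, 131 genes (1.25%) were higher and 120 (1.15%) lower, or 170 and 83 with total counts. The members nearest the 2-fold threshold were SLC7A11 (log2 fold -1.001) inside and PLSCR4 (-0.99) outside on the lower side, and FIBCD1 (1.002) inside and RAB26 (0.99) outside on the higher side. Counting error alone spans that threshold for nearly all of them: none of the 15 lower genes and 1 of the 6 higher genes, TP53INP1, had an interval wholly past 2-fold. TP53INP1 passed the filter only through the library labelled siPPARG, and the lower end of its interval was 2.003.

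**Figure D1:**
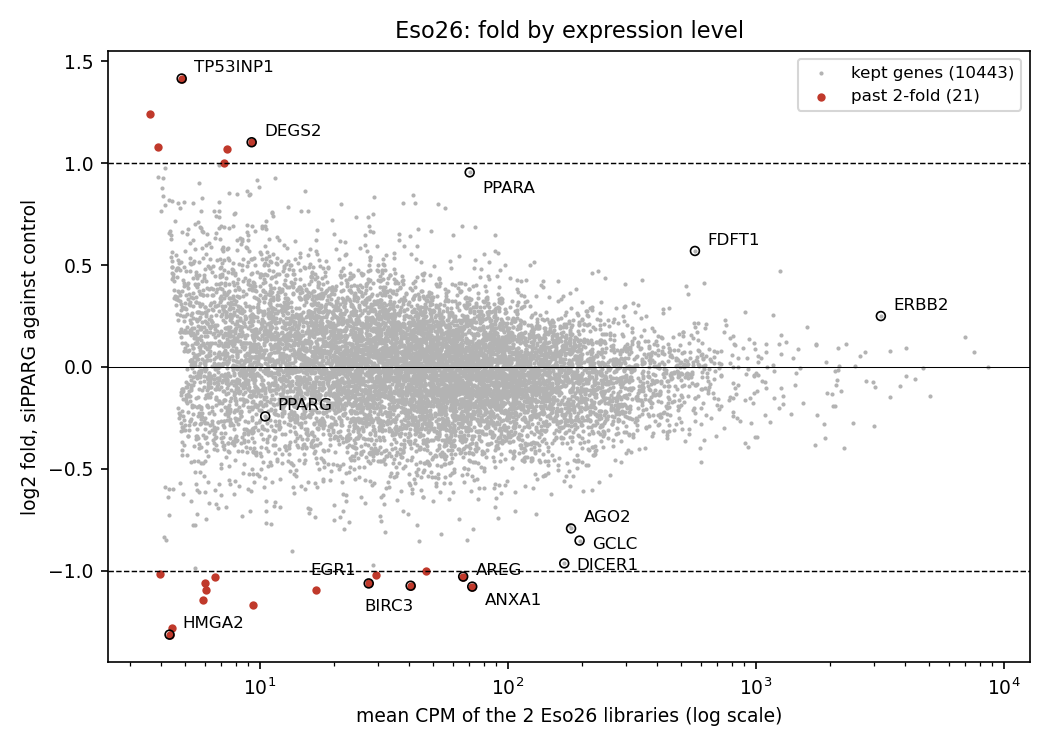
Log2 fold of siPPARG against control (vertical axis) by mean CPM of the 2 Eso26 libraries (horizontal axis, log scale), 1 point per kept gene, with the 21 genes past 2-fold in red and dashed lines at 2-fold. PPARG lies inside the cloud at a log2 fold of -0.24, PPARA just under the upper line at 0.95, and DICER1, GCLC and AGO2 below the cloud at high counts.

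The log2 folds in Eso26 moved with the length of the gene. Span, the distance from the start to the end of a gene in the RefSeq annotation, was known for 10355 kept genes (99.2%), and its rank correlation with the log2 fold across genes was -0.34 in Eso26 and -0.069 over 10440 genes in OE33. These points share the same pair of libraries and are not independent. With genes put in 10 classes of like size by span, in the shortest class (up to 5.88 kb) the median log2 fold was 0.12 and 74.3% of genes were higher. In the longest class (from 151 kb) the median was -0.12 and 29.1% were higher. In OE33 the same medians were 0.0074 and -0.014. Genes higher past 1.5-fold in Eso26 had a median span of 20.5 kb and those lower past 1.5-fold 59.3 kb, against 31.9 kb over all kept genes. The log2 fold also went down with expression level, with a rank correlation of -0.20. The 15 genes lower past 2-fold had a median span of 23.2 kb. Where a group of genes is described below, its median after centring within these classes is given too. The part of span in any single difference was not tested.

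**Figure D2:**
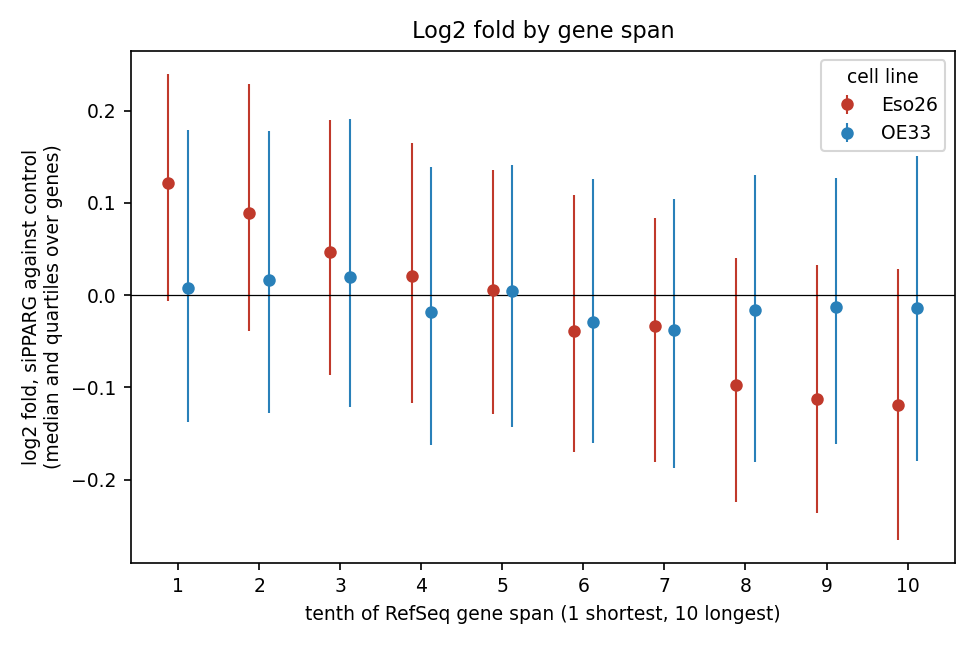
Median (points) and quartiles (bars) over genes of the log2 fold of siPPARG against control, in 10 classes of RefSeq gene span from shortest to longest, for Eso26 (red) and OE33 (blue). The Eso26 medians go from 0.12 in the shortest class to -0.12 in the longest, while the OE33 medians stay within 0.04 of 0.

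The genes lower past 2-fold included growth factors and early response regulators. AREG encodes amphiregulin, a ligand of the epidermal growth factor receptor, and stood at 88.9 CPM in the control and 43.5 CPM in the library labelled siPPARG, a ratio of 0.489 (interval 0.452 to 0.529). The hg19 build named in the submitters' notes carries a near-identical copy of AREG, so the sharing of its reads is uncertain. EGR1, an immediate early zinc finger factor switched on by growth factor signalling, went from 37.3 to 17.8 CPM, a ratio of 0.477 (interval 0.421 to 0.540). CREB5, a bZIP factor that pairs with JUN, went from 22.99 to 10.7 CPM (ratio 0.465, interval 0.396 to 0.545). In OE33 the log2 fold was 0.08 for AREG and -2.11 for EGR1, and CREB5 had 1 and 0 counts there.

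TGFB2 and TGFBI, both tied to TGF-beta signalling, were also among the 15. TGFB2, a secreted TGF-beta ligand, went from 8.91 to 4.32 CPM (ratio 0.484, interval 0.373 to 0.624). TGFBI, a matrix protein induced by TGF-beta, went from 8.16 to 3.64 CPM (ratio 0.447, interval 0.337 to 0.586). Both rest on at most 202 counts in a library, and their OE33 log2 folds were 0.11 and 0.23.

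ANXA1, EMP1, CFL2 and CEACAM6 act at the membrane or on the cytoskeleton. ANXA1 encodes annexin A1, a calcium-dependent phospholipid-binding protein with anti-inflammatory actions, and went from 2216 counts (97.8 CPM) to 964 counts (46.2 CPM), a ratio of 0.473 (interval 0.438 to 0.510). It had the most counts of the 15 lower genes. EMP1, an epithelial membrane protein with several membrane spans, went from 13.1 to 5.75 CPM (ratio 0.441, interval 0.353 to 0.547). CFL2, a cofilin that severs actin filaments, went from 39.5 to 19.4 CPM (ratio 0.491, interval 0.436 to 0.553). CEACAM6, a cell adhesion glycoprotein of columnar epithelium, went from 6.31 to 2.54 CPM (ratio 0.403, interval 0.288 to 0.556). CEACAM genes are close relatives, so the sharing of reads among them is uncertain. In OE33 the log2 folds were -0.12 for ANXA1, -0.11 for EMP1, 0.55 for CFL2 and -1.60 for CEACAM6.

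The lower genes also included SLC7A11, SLC7A2 and TRPV3, which move amino acids or ions across membranes. SLC7A11 is the cystine and glutamate exchanger that supplies cysteine for glutathione, and it went from 62.5 to 31.2 CPM (ratio 0.499, interval 0.454 to 0.548). SLC7A2, a carrier of arginine and lysine, went from 5.34 to 2.59 CPM (ratio 0.485, interval 0.345 to 0.674). TRPV3, a heat-sensitive calcium channel of epithelia, went from 8.29 to 3.84 CPM (ratio 0.463, interval 0.351 to 0.604). SLC7A11 held 1416 and 650 counts, whereas neither of the others had more than 188 counts in a library.

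The remaining lower genes were BIRC3, CYP4F3 and HMGA2. BIRC3, an inhibitor of apoptosis and a target of NF-kB, went from 55.1 to 26.1 CPM (ratio 0.474, interval 0.428 to 0.524). CYP4F3, a cytochrome P450 that hydroxylates leukotriene B4 and fatty acids, went from 8.21 to 3.88 CPM (ratio 0.473, interval 0.360 to 0.618). HMGA2, a chromatin protein of embryonic tissue that is repressed by let-7 miRNAs, went from 6.22 to 2.45 CPM, the lowest ratio among the kept genes at 0.393 (interval 0.280 to 0.545). In OE33, HMGA2 went from 143 to 64.1 CPM. Of the 15 lower genes, 12 passed the filter in OE33. Of all 15, 8 had a log2 fold below 0 there, a share near the 51.3% of all genes kept in OE33 that were lower, and these 8 include CREB5 (1 and 0 counts) and CYP4F3 (26 and 16 counts). HMGA2, CEACAM6 and EGR1 were lower past 2-fold in OE33 as well, where 44 of 10527 kept genes were lower past 2-fold. HMGA2 and CEACAM6 passed the Eso26 filter only through the control. The difference between the lines was not tested, and 7 of the 15 were under 5 CPM in the library labelled siPPARG.

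The 6 genes higher past 2-fold had low counts, at most 265 in a library, and 5 of them were under 5 CPM in the control. TP53INP1, a p53-inducible protein of autophagy and cell death, went from 2.60 to 7.10 CPM (59 and 148 counts), a ratio of 2.73 (interval 2.003 to 3.75). C10orf99, which encodes a small secreted peptide of the gut epithelium, went from 2.12 to 5.13 CPM (ratio 2.42, interval 1.71 to 3.48). DEGS2, a sphingolipid desaturase and hydroxylase that makes phytoceramide, went from 5.87 to 12.7 CPM (ratio 2.17, interval 1.75 to 2.69). CCDC88B, a coiled-coil protein known from immune cells, went from 2.47 to 5.32 CPM (ratio 2.15, interval 1.55 to 3.03). GPRC5B, an orphan receptor, went from 4.72 to 10.0 CPM (ratio 2.12, interval 1.67 to 2.71), and FIBCD1, a chitin-binding membrane protein, from 4.76 to 9.64 CPM (ratio 2.02, interval 1.59 to 2.58). C10orf99 had no counts in either OE33 library and DEGS2 had 4 and 1. The OE33 log2 folds of TP53INP1 and GPRC5B were 0.05 and 0.27.

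**Figure D3:**
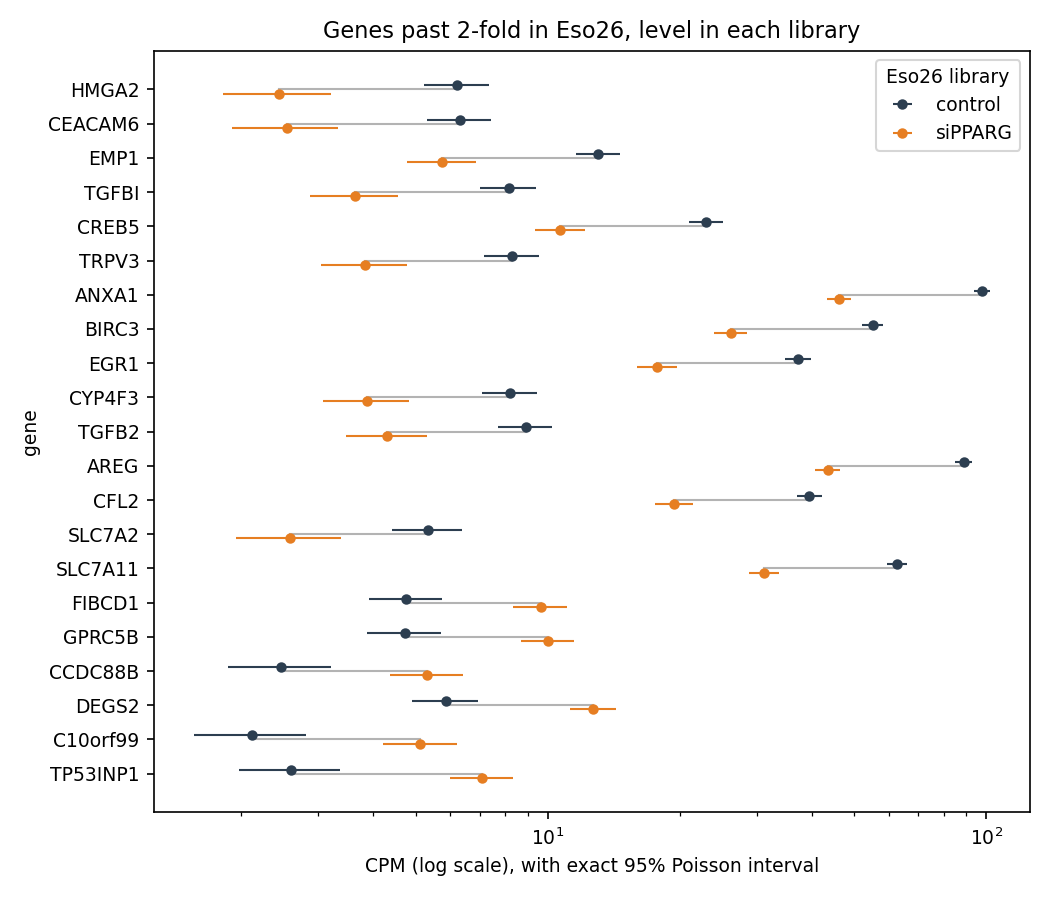
CPM (horizontal axis, log scale) of the 21 genes past 2-fold in the Eso26 control (dark) and siPPARG (orange) libraries, with bars for the exact 95% Poisson interval of counting error. The bars of the 2 libraries are apart for every gene shown. The genes were picked by their fold and by the filter, so this gap follows largely from that choice. ANXA1, at 97.8 and 46.2 CPM, has the highest level in each library among the lower genes.

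Promoters of these genes are shown because several regulators among them (EGR1, CREB5) belong to families with short, well-known DNA motifs. RefSeq promoters on GRCh38.p14 (250 bases before to 50 after a start) were matched for 16 of the 21 genes, 19 promoters in all, and searched on both strands for 5 motifs. The AP-1 motif TGANTCA, bound by FOS, JUN and their relatives, was found in CREB5, CYP4F3, EMP1 and TRPV3. It occurs in 7.71% of 35116 promoters of this length. The serum response element, the site of SRF, was found in EGR1 and occurs in 1.29% of promoters. The EGR motif GCGNGGGCG was found in DEGS2, EGR1 and FIBCD1 (9.43% of promoters), and the TEAD motif GGAATG in CREB5, TGFB2 and TRPV3 (14.03%). The exact DR1 element, a direct repeat of AGGTCA with 1 base between the copies and the textbook site of PPARG with RXR, was found in none of the 16 genes and in 0.0228% of promoters. A match is a description of the letters in the window and not a measured site. Below, written 5' to 3' in the sense of the gene, the capitals mark the serum response element in EGR1 (2 matches, starting at -105 and -83 from the start) and the AP-1 motif in EMP1 (starting at -175 and -48), TRPV3 (-104) and CYP4F3 (-165). TRPV3 and CYP4F3 are shown as the motif with 30 bases on each side.
EGR1 promoter (chr5:138465229-138465528, plus strand): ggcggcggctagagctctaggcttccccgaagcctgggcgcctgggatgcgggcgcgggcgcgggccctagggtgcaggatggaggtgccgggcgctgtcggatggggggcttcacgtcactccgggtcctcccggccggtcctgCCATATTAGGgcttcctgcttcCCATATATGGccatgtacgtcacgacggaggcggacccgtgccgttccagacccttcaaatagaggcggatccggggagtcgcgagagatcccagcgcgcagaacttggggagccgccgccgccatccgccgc
EMP1 promoter (chr12:13196476-13196775, plus strand): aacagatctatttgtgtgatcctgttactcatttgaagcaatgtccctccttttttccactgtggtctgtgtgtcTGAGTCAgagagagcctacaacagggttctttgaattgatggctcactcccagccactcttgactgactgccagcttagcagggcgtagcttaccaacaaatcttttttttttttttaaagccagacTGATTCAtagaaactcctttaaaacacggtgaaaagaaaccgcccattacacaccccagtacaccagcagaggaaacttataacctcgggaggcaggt
TRPV3 promoter window (chr17:3557880-3557946, minus strand): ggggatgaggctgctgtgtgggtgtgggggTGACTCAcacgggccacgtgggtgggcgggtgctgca
CYP4F3 promoter window (chr19:15641117-15641183, plus strand): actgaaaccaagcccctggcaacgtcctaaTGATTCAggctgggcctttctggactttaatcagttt

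Deeply counted genes give the most precise ratios. At least 1000 counts in both libraries were held by 4724 genes, of which 1963 were higher and 2761 lower. None of them passed 2-fold, while 5 were higher and 22 lower past 1.5-fold. The bar applies to both libraries, so it leaves out genes that fall under it in 1 library through the difference itself. Such genes include ANXA1 (2216 and 964 counts) and AREG (2015 and 907 counts), both lower past 2-fold. The lowest of the 4724 was DICER1, the RNase that cuts precursor miRNAs. It went from 5071 to 2389 counts (224 to 115 CPM), a ratio of 0.512 (interval 0.488 to 0.538). Its partners in miRNA silencing were among the lowest 10 too: AGO2, the slicer that carries the small RNA, went from 229 to 132 CPM (ratio 0.577, interval 0.550 to 0.604). TNRC6A, a GW182 scaffold that links Argonaute to deadenylases, went from 92.3 to 53.1 CPM (ratio 0.575, interval 0.534 to 0.619). Also among these 10 were CLOCK, a core circadian transcription factor (224 to 131 CPM, ratio 0.584), EPHA2, an ephrin receptor kinase (162 to 97.7 CPM, ratio 0.605), and FAM135A (88.3 to 48.9 CPM, ratio 0.554). In OE33 the log2 folds were 0.23 for DICER1, -0.37 for AGO2 and 0.37 for TNRC6A.

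At the other end of the deeply counted genes, PPARA was highest, followed by PRPSAP1, a subunit associated with phosphoribosyl pyrophosphate synthetase, which went from 50.2 to 81.3 CPM (ratio 1.62, interval 1.501 to 1.75). CYP2W1, a cytochrome P450 known from colon tumours, went from 56.5 to 91.1 CPM (ratio 1.61, interval 1.5002 to 1.73). LGALS4, a galectin of intestinal epithelium, went from 47.1 to 73.8 CPM (ratio 1.57, interval 1.45 to 1.70). FDFT1, the squalene synthase that commits isoprenoids to cholesterol, went from 458 to 680 CPM (ratio 1.48, interval 1.45 to 1.52). CYP2W1 and LGALS4 had at most 4 counts in an OE33 library, and FDFT1 was lower there, at 231 and 179 CPM.

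The RNA interference machinery as a whole leaned lower. Of 13 kept members, 10 were lower, 3 of them past 1.5-fold, and after centring by span 4 of 13 were higher. The median log2 fold was -0.25 (-0.18 after centring by span). Counts of this and the later lists are read against all 10443 kept genes. Of those, 48.6% were higher, and past 1.5-fold 1.25% were higher and 1.15% lower. TNRC6B, a paralog of TNRC6A, went from 69.2 to 52.9 CPM (ratio 0.764). AGO4 and DGCR8, an Argonaute without slicer activity and the partner of DROSHA, were higher, with ratios of 1.29 (interval 1.10 to 1.51) and 1.23 (interval 1.12 to 1.34). The oncofetal list, which holds HMGA2 with let-7 linked genes and shares DICER1 and AGO2 with the former list, was lower for 12 of its 15 genes, median -0.35 (-0.26 centred). IGF1R, the receptor of insulin-like growth factors, went from 47.3 to 32.9 CPM (ratio 0.695, interval 0.630 to 0.765).

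NRF2 targets, the antioxidant genes switched on by the factor NFE2L2, had the lowest median among lists with more than 15 kept members. Smaller lists had lower medians: oncofetal genes (15 kept, -0.35), keratins (8 kept, -0.36) and CEACAM genes (2 kept, -0.60). Of 18 kept NRF2 targets, 15 were lower and 5 were past 1.5-fold. The median log2 fold was -0.34 (-0.37 centred), and 14 genes had intervals wholly below 1. GCLC, the catalytic subunit of the enzyme that starts glutathione synthesis, went from 251 to 139 CPM (ratio 0.553, interval 0.529 to 0.579), and its modifier subunit GCLM from 153 to 106 CPM (ratio 0.694, interval 0.658 to 0.732). SLC7A11, which imports the cystine they use, is described above. The aldo-keto reductases AKR1C2 and AKR1C1 went from 54.3 to 31.6 CPM and from 25.1 to 14.9 CPM, with ratios of 0.583 and 0.593; their sequences are nearly identical, so the split of reads between them is uncertain. ABCC2, a pump for glutathione conjugates, went from 39.0 to 25.8 CPM (ratio 0.662, interval 0.594 to 0.738). The list was not uniform: NQO1, a quinone reductase, stood at 461 and 448 CPM (ratio 0.971, interval 0.944 to 0.999), and TXNRD1, thioredoxin reductase, at 485 and 538 CPM (ratio 1.11, interval 1.08 to 1.14). In OE33, 13 of 16 kept members were higher, with a median of 0.24.

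Immediate early genes and the feedback inhibitors of MAP kinase signalling were mostly lower too. Of 31 kept members, 25 were lower, 5 of them past 1.5-fold, and the median log2 fold was -0.27 (-0.36 centred). ERRFI1, which inhibits the EGF receptor kinase, went from 56.6 to 31.3 CPM (ratio 0.553, interval 0.502 to 0.608). FOSL1, a FOS-family partner of JUN, went from 13.1 to 8.01 CPM (ratio 0.609, interval 0.501 to 0.739). KLF10, an early TGF-beta response factor, went from 27.2 to 17.6 CPM (ratio 0.646), and SPRED1, an inhibitor of RAS signalling, from 16.8 to 10.9 CPM (ratio 0.649). The receptor system upstream of them was mixed, with 4 of 7 kept members higher and a median of 0.0006 that changes sign with the scaling. Its ligand TGFA went from 9.93 to 15.1 CPM, a ratio of 1.52 (interval 1.27 to 1.81), opposite to AREG. The receptor EGFR went from 72.4 to 62.3 CPM (ratio 0.862) and ERBB2 from 2923 to 3474 CPM (ratio 1.19, interval 1.18 to 1.20). In OE33, 20 of 35 kept early response genes were higher, with a median of 0.06, against 48.7% of all genes kept there.

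Genes of the YAP and TEAD system, which reads cell contact and stiffness, and of the TGF-beta pathway were lower in most cases. Of 27 YAP and TEAD genes, 21 were lower, 4 past 1.5-fold, with a median of -0.26 (-0.16 centred). TGFB2 and IGFBP3, 2 of those 4, passed the filter only through the control. F3, the tissue factor that starts coagulation, went from 47.0 to 28.8 CPM (ratio 0.612, interval 0.553 to 0.677), and the DNA-binding factor TEAD1 went from 156 to 107 CPM (ratio 0.682, interval 0.647 to 0.720). Of 25 TGF-beta pathway genes, 19 were lower, 5 past 1.5-fold, with a median of -0.16 (-0.10 centred). Of those 5, 4 were ligands or receptors, and TGFB2 and TGFBI passed the filter only through the control. TGFBR2, the ligand-binding kinase, went from 110 to 70.1 CPM (ratio 0.639, interval 0.598 to 0.682). TGFBR3, the co-receptor betaglycan, went from 106 to 70.1 CPM (ratio 0.662, interval 0.620 to 0.707), and ACVR2B, an activin receptor, from 13.99 to 8.15 CPM (ratio 0.583, interval 0.481 to 0.704). Laminins, integrins and matrix proteases followed, with 15 of 20 lower and a median of -0.20 (-0.15 centred). ITGA3, the laminin-binding integrin subunit, stood apart from them at 7.10 and 11.5 CPM (ratio 1.62, interval 1.32 to 1.99).

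Of 20 NF-kB genes and chemokines, 14 were lower, 3 past 1.5-fold, with a median of -0.15 (-0.14 centred). Besides BIRC3 these were REL, an NF-kB subunit (24.5 to 15.3 CPM, ratio 0.624, interval 0.542 to 0.717), and CCL20, a chemokine for CCR6-bearing cells (6.75 to 4.41 CPM, ratio 0.654, interval 0.499 to 0.852). CCL20 passed the filter only through the control. Interferon-stimulated genes were split, with 18 of 35 higher and a median of 0.03 (-0.01 centred). MYD88, the adaptor of Toll-like receptors, was the highest of them, from 21.3 to 35.9 CPM (ratio 1.69, interval 1.502 to 1.90). In OE33 the interferon-stimulated genes were higher in 39 of 39 cases, with a median of 1.26.

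Lipid genes are the group that PPARG is best known for. Their counts are read against the 48.6% of all kept genes that were higher. Among the lipid lists, fatty acid oxidation was the most uniform, with 17 of 19 members higher, 3 past 1.5-fold, and a median of 0.13 (0.14 centred). ACADS, the short-chain acyl-CoA dehydrogenase, went from 18.4 to 30.7 CPM (ratio 1.67, interval 1.47 to 1.89). CPT1A, the carnitine acyltransferase that admits fatty acids to mitochondria, went from 16.6 to 25.6 CPM (ratio 1.54, interval 1.34 to 1.76), and SLC25A20, the carnitine carrier, from 6.66 to 10.2 CPM (ratio 1.53, interval 1.23 to 1.89). In OE33, 15 of 18 members of the same list were lower, with a median of -0.09.

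Of 20 kept PPAR targets, 14 were higher, with a median of 0.11 (0.10 centred). By role, 7 of 8 genes of mitochondria and peroxisomes were higher (median 0.21) and 4 of 6 of fatty acid uptake and binding (median 0.03). Both kept genes of lipid droplets and storage were higher (median 0.16), and 1 of 4 other targets (median -0.30). CPT1A is counted both among the genes of mitochondria and peroxisomes and on the fatty acid oxidation list, so these are not separate groups. The difference between these roles was not tested. AQP3, a glycerol channel, was the lowest, from 5.21 to 3.31 CPM (ratio 0.636, interval 0.465 to 0.863), and passed the filter only through the control. The lipid droplet coat gene PLIN2 stood at 45.7 and 48.3 CPM (ratio 1.06, interval 0.970 to 1.16). In fatty acid synthesis 14 of 23 genes were higher, median 0.11 (0.10 centred). SCD, the stearoyl-CoA desaturase, went from 453 to 595 CPM (ratio 1.31), while ME1, a supplier of NADPH that is also on the NRF2 list, went from 170 to 122 CPM (ratio 0.715, interval 0.680 to 0.752). Cholesterol genes had 17 of 26 higher and a median of 0.10 (0.10 centred), made up of 15 of 20 synthesis genes and 2 of 6 genes of uptake and export. Sphingolipid genes had 10 of 19 higher and a median of 0.03 (0.03 centred), a share near that of all kept genes. Triglyceride and phospholipid genes had 11 of 18 higher and a median of 0.17 (0.16 centred). The regulators of lipid synthesis had 10 of 12 higher and a median of 0.16 (0.22 centred). SREBF1, the main factor of fatty acid synthesis genes, went from 69.3 to 99.1 CPM (ratio 1.43, interval 1.34 to 1.53). MYLIP, a ubiquitin ligase for the LDL receptor, went from 38.3 to 28.5 CPM (ratio 0.746, interval 0.671 to 0.829).

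Columnar and intestinal genes are given by role, and the difference between the roles was not tested. Of 12 brush border and secretory genes that passed the filter (31 were listed), 9 were higher, 2 past 1.5-fold, with a median of 0.21 (0.22 centred). They included LGALS4, described above, and CDHR2, a protocadherin of microvilli (3.93 to 6.33 CPM, ratio 1.61, interval 1.22 to 2.13), which passed the filter only through the library labelled siPPARG. CDHR5, its binding partner, went from 5.12 to 7.24 CPM (ratio 1.41, interval 1.10 to 1.82), and MUC1, a membrane mucin, from 45.0 to 60.9 CPM (ratio 1.35, interval 1.25 to 1.47). Of 17 transcription factors of this list, 9 were higher. Keratins of simple epithelia were lower in 5 of 6 cases, median -0.36 (-0.39 centred). KRT8 went from 1023 to 789 CPM (ratio 0.772, interval 0.757 to 0.788) and its filament partner KRT18 from 426 to 337 CPM (ratio 0.790, interval 0.766 to 0.815). KRT19, a keratin of ducts and glands, stood at 822 and 991 CPM (ratio 1.21, interval 1.18 to 1.23). Keratins have many processed pseudogenes, so their reads may be shared.

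Lists of short housekeeping genes were close to uniform before centring by span and less so after it. Nuclear genes of oxidative phosphorylation were higher in 38 of 40 cases with a median of 0.12, and their median span was 10.6 kb. After centring, 30 of 39 were higher and the median was 0.06. Ribosomal protein genes, with a median span of 4.69 kb, were higher in 24 of 25 cases with a median of 0.11, and after centring 10 of 25 were higher with a median of -0.02. The 13 mitochondrially encoded genes had a median of -0.09, with 3 higher. DNA replication genes had 22 of 31 higher, with a median of 0.09 (0.10 centred), and mitotic genes 17 of 28 higher, with a median of 0.02 (-0.02 centred). In OE33, 28 of 28 mitotic and 28 of 31 replication genes were lower.

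**Figure D4:**
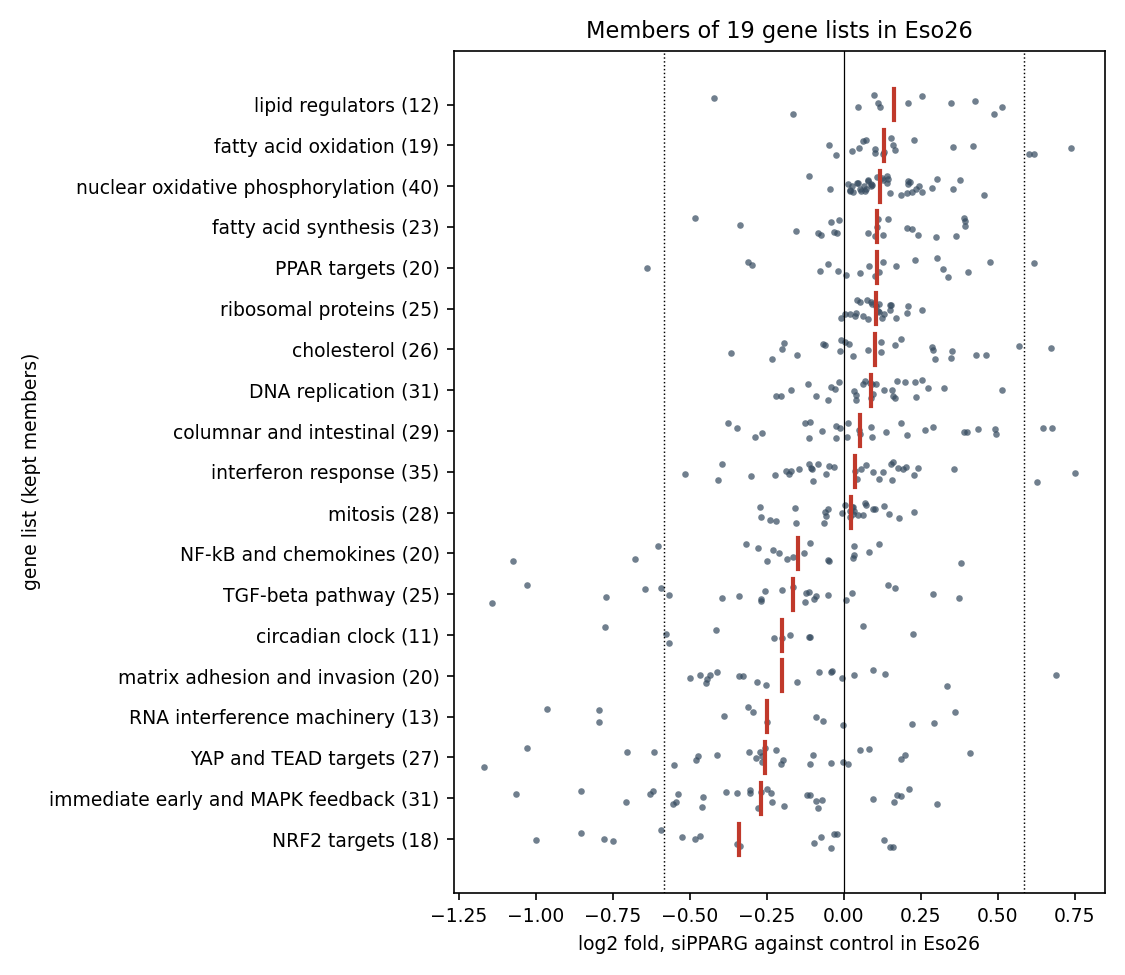
Log2 fold of siPPARG against control in Eso26 (horizontal axis) for the kept members of 19 gene lists (vertical axis, number kept in brackets), 1 point per gene, with a red bar at each list's median and dotted lines at 1.5-fold. Among these 19 lists, medians run from 0.16 in lipid regulators to -0.34 in NRF2 targets, and members past 1.5-fold lie mostly on the lower side. Over all kept genes, 131 were higher and 120 lower past 1.5-fold. Lists not drawn include keratins (median -0.36), oncofetal genes (-0.35) and triglyceride and phospholipid genes (0.17).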

How the data were processed

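RNA-seq of 2 Eso26 libraries was compared, with 2 OE33 libraries beside them. The authors deposited raw counts, each table with 37533 rows, of which 40 repeat an identifier and were added to the earlier row of that identifier. The submitters' processing notes name Trim Galore, STAR, Bowtie, Picard, MACS2 and hg19 without roles. The counter, its strand setting and its handling of shared reads: not given in the sources used here. The 2 PPARG peak lists were not used. Scaling was by TMM (edgeR 4.0.16 under R 4.3.3). Log2 folds are differences of log2 CPM with a prior count of 2, and printed CPM are counts over scaled totals. Ratios carry exact conditional binomial (Clopper-Pearson) and CPM exact Poisson 95% intervals (scipy 1.17.1). With 1 library per condition, 2-fold and 1.5-fold serve as size thresholds in place of a test. A count of 0 allows up to 3 counts, 0.132 CPM in the control and 0.144 CPM in the library labelled siPPARG. Scripts were tested on simulated data.

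Named genes were those past 2-fold, the 10 highest and 10 lowest among genes with at least 1000 counts in both libraries, the PPAR and RXR receptors, the 4 epithelial factors ELF3, KLF5, GATA6 and EHF, the genes nearest each threshold and, per list, at most 4 with the largest folds. AGO4, DGCR8, GCLM, ABCC2, NQO1, TXNRD1, SPRED1, EGFR, TEAD1, TGFBR3, PLIN2 and MUC1 were named after their values were seen. The members and the 42 lists (6 of them of cell type markers) were chosen with earlier results of these data known. RefSeq spans and promoters are from GRCh38.p14, and spans were matched by symbol and used as a property only. Alternatives were other scalings (total counts, DESeq2 1.42.0 size factors, upper quartile), another prior, other filters, the first of repeated identifiers, whole intervals past the threshold and, chosen after seeing the data, centring by classes of gene span.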

Additional observations from a re-analysis of the deposited data

Results flagged for a closer look

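Of 9588 genes kept in both lines, 6 had log2 folds past 1.5-fold in opposite directions in the 2 lines and 15 past 1.5-fold in the same direction. Past 1.5-fold, 131 genes were higher and 120 lower of 10443 kept in Eso26, and 343 higher and 251 lower of 10527 kept in OE33. With 1 library per condition the difference between the lines was not tested, and the lines also differ in medium. MMP24, a membrane-bound matrix metalloproteinase, had a log2 fold of -0.85 in Eso26 (123 and 62 counts) and 1.91 in OE33 (53 and 218 counts). AKR1C1, an aldo-keto reductase with near-identical relatives, had -0.75 in Eso26 and 1.11 in OE33, where it held 41 and 97 counts. F3, the tissue factor, had -0.71 in Eso26 (1065 and 600 counts) and 1.10 in OE33 (19515 and 44744 counts). GPAT3, an acyltransferase of triglyceride synthesis, had -0.73 in Eso26 and 0.68 in OE33. HTRA1, a secreted serine protease, had 0.68 in Eso26 and -0.69 in OE33, and REEP6, an endoplasmic reticulum protein, had 0.61 and -0.62. These genes were picked out by their values in both lines.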

How the results depend on the processing

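The PPARG ratio kept its direction under every scaling, and its interval includes 1. Counts of genes past a threshold depended mostly on the filter. Past 2-fold, the 6 higher genes became 66 at 1 CPM, 2 at 10 CPM, 713 with no filter and 1 with 5 CPM required in both libraries, and 1 had its whole interval past the threshold. The 15 lower genes became 38, 8, 334 and 8 under those filters, and 0 had a whole interval past it. Whole intervals were counted in the reported setting only. The 1 higher gene, TP53INP1, had a lower end of 2.003 there, and its ratio was 2.69 with DESeq2 size factors against 2.73 as reported. Past 1.5-fold, the 131 higher genes became 412 at 1 CPM, 72 at 10 CPM, 2342 with no filter, 87 with 5 CPM in both libraries and 22 by whole intervals, and the 120 lower genes became 221 at 1 CPM, 1150 with no filter and 34 by whole intervals. Of the 21 genes past 2-fold, 16 were shared with the 18 found with total counts, 20 with the 22 found with DESeq2 size factors, 18 with the 19 found with upper-quartile factors and 17 with the 20 found after centring by span, where PPARA was also past 2-fold. The higher share of genes past 1.5-fold was 52.2% in the reported setting, 67.2% with total counts, 45.3% with DESeq2 size factors and 60.2% after upper-quartile scaling.

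Of the 349 list medians recomputed, 339 moved by less than their spread. That total includes the first of repeated identifiers and a prior count of 0.5, which moved no median and could hardly do so. Centring by span turned the ribosomal proteins to -0.016 and the reference genes to -0.029 (0.046 as reported), and annexins to 0.026 from -0.041. Total counts moved ribosomal proteins to 0.15, reference genes to 0.090 and mitochondrially encoded genes to -0.043. The EGF receptor system moved to -0.11 at 1 CPM and -0.15 with no filter, and keratins to -0.00723 and -0.034. The medians of the master factors, annexins, p53 targets and the EGF receptor system change sign between scalings. Of 811 values of the genes named by the rule, 760 stayed inside their counting interval and 51 left it. Of the 760, 163 came from the first of repeated identifiers, a setting that could hardly move a ratio. Centring by span accounted for 35 of those 51, with 124 that stayed, and total counts for 13, with 150 that stayed. The ratio of LYZ, 1.003 as reported, was below 1 with DESeq2 size factors (0.989) and after centring by span (0.922), and no other of the 163 genes named by the rule crossed 1. No paired analysis was possible because each condition has 1 library.

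Depth limits the low genes most. At 5 CPM a gene holds near 114 counts in the control and near 104 in the library labelled siPPARG. With 1 library per condition the spread between cultures is not measured.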

Other observations

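Among the genes higher past 1.5-fold in the library labelled siPPARG were several enzymes of absorptive epithelium and liver, named here after their values were seen. The list of cytochromes and conjugation enzymes was near balance, with 9 of 17 higher and a median of 0.05 (0.02 centred). Past 1.5-fold, 2 of its genes were higher and 1, CYP4F3, was lower. GGT6, of the gamma-glutamyltransferase family, stood at 29.6 CPM in the control and 53.3 CPM in the library labelled siPPARG (ratio 1.80, interval 1.63 to 1.98). AOC1, the diamine oxidase that breaks down histamine, stood at 27.5 and 48.1 CPM (ratio 1.75, interval 1.58 to 1.94). SELENBP1, a selenium-binding oxidase of the gut, stood at 41.2 and 70.7 CPM (ratio 1.72, interval 1.58 to 1.87). CYP27A1, the sterol 27-hydroxylase, stood at 14.8 and 24.5 CPM (ratio 1.65, interval 1.44 to 1.90). GGT6, AOC1, SELENBP1 and CYP27A1 each had at most 16 counts in an OE33 library.

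Cell cycle inhibitors differed among themselves. CDKN2B, the CDK4 and CDK6 inhibitor induced by TGF-beta, stood at 6.79 and 3.93 CPM (ratio 0.579, interval 0.437 to 0.761) and passed the filter only through the control. CDKN2C, an inhibitor of the same kinases, stood at 8.34 and 14.2 CPM (ratio 1.70, interval 1.41 to 2.05). Hypoxia and glycolysis genes were near balance, with 9 of 21 higher. SLC2A1, the glucose transporter, stood at 231 and 167 CPM (ratio 0.722), and HK2, hexokinase, at 121 and 90.1 CPM (ratio 0.746). NDRG1, a stress-inducible gene on the same list, stood at 28.6 and 44.1 CPM (ratio 1.54, interval 1.39 to 1.71).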
